A study of Mus musculus with 2 samples.

Results

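The 42 genes described here build and move the actin cytoskeleton of a phagocyte. They comprise the 2 cytoplasmic actins, 7 subunits of the Arp2/3 complex, 4 nucleation promoting factors, 6 genes of monomer binding, severing and capping, 3 coronins, 4 formin and Ena/VASP genes, 4 small GTPases, 4 GTPase regulators, 6 motor, crosslinker and adhesion genes and 2 genes of the ezrin, radixin and moesin (ERM) family. They were chosen by gene symbol from the 55536 genes of the GENCODE M21 mouse annotation, 22015 of which are protein-coding genes of nuclear chromosomes, and all 42 were found in every table. RNA was measured in the chromatin fraction of macrophages grown from bone marrow of C57BL/6J mice, at 0 minutes of a lipid A time course at 100 ng/ml. The chromatin fraction holds RNA that is still attached to its template, and lipid A is the part of endotoxin that Toll-like receptor 4 recognises. There were 2 libraries of total RNA, replicate 1 from 250 ng and replicate 2 from 500 ng of RNA. Both belong to 1 group with 1 donor entry, so no condition was compared and no p-value is given. Nothing says that they came from separate animals, and the SDs below measure the spread of these libraries alone, which may be technical.

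Actin monomers polymerise into filaments whose growth pushes the membrane forward. In a macrophage the Arp2/3 complex branches new filaments from existing ones when WASP or WAVE proteins switch it on, and formins and Ena/VASP proteins lengthen unbranched filaments. Small GTPases decide where this happens: exchange factors of the DOCK family load Rac and Cdc42 with GTP, and the resulting cups and ruffles engulf particles and pull the cell along. Coronins and cofilin take the network apart again, and capping proteins block the growing ends of filaments. Myosin, filamin, plastin and talin tie the network together and to integrins.

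The gene tables held 10970767 expected counts in replicate 1 and 14207280 in replicate 2. All 10 macrophage markers examined were detected, meaning at a TPM (a level scaled for transcript length and for the sum of its table) of 1 or more in both libraries. The highest were Lyz2, a lysozyme gene, at 176 TPM and Csf1r, the receptor for the growth factor CSF1, at 173 TPM. Of 52 markers of 10 other cell types, 4 reached that level in the gene table and 13 in the second transcript table. Pf4, a platelet chemokine gene, had 11.98 TPM in replicate 1 and 3.50 TPM in replicate 2, and Itga2b, a platelet integrin gene, had 2.64 and 1.01 TPM. The others were Kdr, an endothelial receptor gene, with 1.93 and 3.16 TPM, and Tnnt3, a striated muscle troponin gene, with 1.40 and 1.99 TPM. Among those added by the second table were Cd3d, a T cell receptor gene, with 8.34 and 10.8 TPM there against 0.07 and 0 TPM in the gene table, and Pecam1, an endothelial adhesion gene, with 4.88 and 6.64 TPM against 0.33 and 0.19 TPM. Of the 9 smooth muscle and stromal markers the gene table detected none, with sums of 4.31 and 2.84 TPM, and the second table detected Tagln and Col1a1, with sums of 4.31 and 5.87 TPM. The macrophage markers summed to 843 and 734 TPM in the gene table and 706 and 991 TPM in the second table. In bulk RNA like this, fewer cells of a type and less RNA per cell cannot be told apart.

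All 42 genes were detected, against 46.7% of the 22015 protein-coding genes. Levels are TPM of the gene table, a unit per transcript length that lets genes be compared, given for replicate 1 and replicate 2 in that order and as mean ± SD (n = 2). The median level of the 42 genes was 52.5 ± 4.41 TPM, against 11.1 ± 0.332 TPM over the 10284 detected protein-coding genes. Of the 42, 29 lay above the upper quartile of detected genes (25.4 TPM) and 12 above their 95th percentile (84.3 TPM). Only Rac1, Rac2, Vcl and Ezr lay below the median of detected genes. Together the list took 1.09% and 0.980% of the expected counts on protein-coding genes. Dock2, Flna, Myo9b, Tln1 and Dock10 held 52.3% of the list's counts, and counts per gene and library ran from 31 (Tmsb10) to 15110 (Dock2). The orders below are those of the gene table: in the second table Actr3 (290 TPM on average) stood above Dock2 (217 TPM). Genes are said to overlap where their ranges over both libraries do, whichever was higher within a library.

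**Figure D1:**
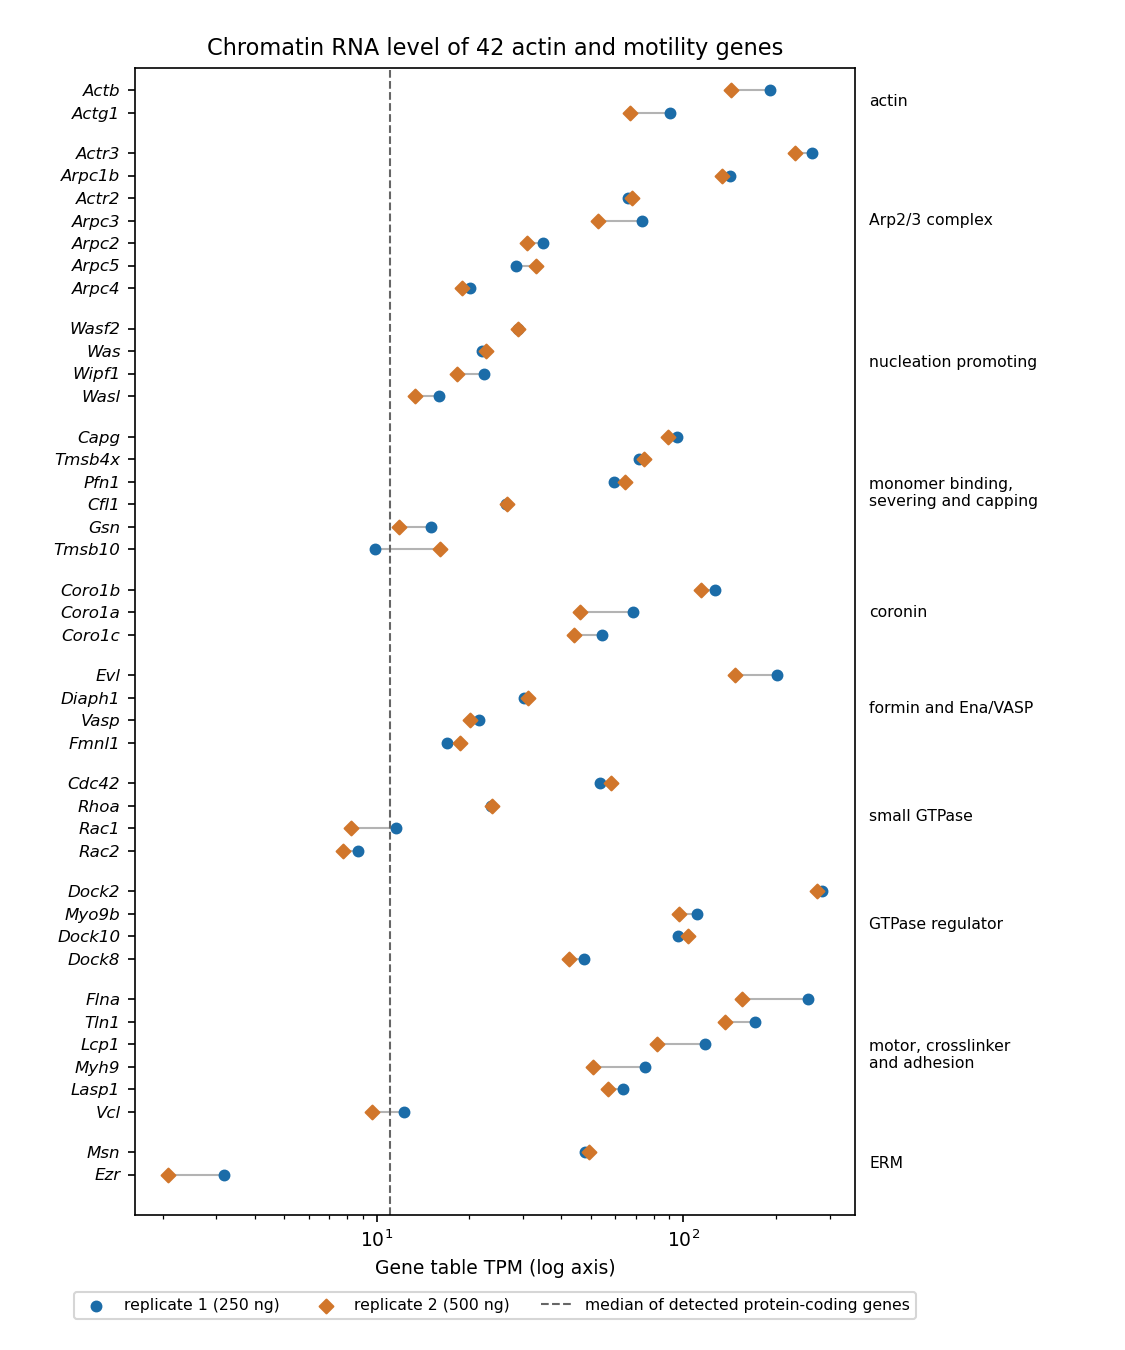
Level of each of the 42 genes in TPM of the gene table (log axis), by role, with replicate 1 as circles, replicate 2 as diamonds and the median of detected protein-coding genes as a dashed line at 11.1 TPM. Dock2 (278 TPM), Actr3 (247 TPM) and Flna (205 TPM) have the highest means and Ezr (2.63 TPM) the lowest, and replicate 1 lies right of replicate 2 for both actins and for all 6 motor, crosslinker and adhesion genes.

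Both actin genes were strongly represented. Actb (chr5:142903115-142906754, minus strand, mm10), which encodes beta-actin, had 191 and 143 TPM, or 167 ± 34.0 TPM. Actg1 (chr11:120345690-120348542, minus strand), which encodes gamma-actin, had 90.8 and 67.1 TPM, or 79.0 ± 16.8 TPM. Actb was above Actg1 in both libraries without overlap, and both genes were lower in replicate 2. The 2 genes encode nearly the same protein, but their transcripts shared only 106 stretches of 31 bases, 3.76% of those of Actb and 3.77% of those of Actg1, so a small part of each gene could not be told from the other. Actb shared more with Lrrc58, an unrelated gene, at 429 stretches or 15.2%.

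The introns of the actin genes show most plainly how the 2 can be told apart in chromatin RNA. Both genes have annotated transcripts that keep an intron at corresponding places, and these transcripts held reads in both libraries. In the first pair of places the intron is 454 bases in Actb (chr5:142904783-142905236) and 286 bases in Actg1 (chr11:120347350-120347635). In the second pair it is 87 bases in Actb (chr5:142905477-142905563) and 93 bases in Actg1 (chr11:120347876-120347968). The splice sites are printed 5′ to 3′ on the gene's strand, read from the GENCODE M21 transcripts (mm10), with intron bases in capitals.
Actb 454-base intron, 5′ site: gatgacccagGTCAGTATCC
Actg1 286-base intron, 5′ site: gatgacgcagGTATGCTTGA
Actb 454-base intron, 3′ site: TTCTCTACAGatcatgtttg
Actg1 286-base intron, 3′ site: CTTTCCACAGataatgtttg
Actb 87-base intron, 5′ site: taggcaccagGTAAGTGACC
Actg1 93-base intron, 5′ site: ccgacaccagGTTAGTTGAG
Actb 87-base intron, 3′ site: CCTTCCACAGggtgtgatgg
Actg1 93-base intron, 3′ site: TCTCTCGCAGggcgtcatgg

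At the first place, 18 of the 20 flanking exon bases were equal between the genes, against 11 of the 20 intron bases. At the second place, 15 of 20 exon bases and 11 of 20 intron bases were equal. The transcripts that keep these introns were Actb-205 with 59.1 and 37.0 TPM, Actb-204 with 52.4 and 43.4 TPM, Actg1-209 with 22.3 and 19.6 TPM, and Actg1-208 with 29.6 and 15.5 TPM. The spliced messages Actb-201 (66.6 and 54.6 TPM) and Actg1-204 (24.99 and 21.2 TPM) were the leading transcripts by mean TPM, although Actg1-208 was above Actg1-204 in replicate 1.

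The subunits of the Arp2/3 complex, which sit together in 1 complex as a protein, differed widely in TPM of the whole gene. Actr3, the actin-related subunit ARP3, had 263 and 231 TPM (247 ± 22.2 TPM), and Arpc1b, the ARPC1 form that prevails in blood cells, had 142 and 133 TPM (138 ± 5.82 TPM). Next came Actr2, the other actin-related subunit, with 66.0 and 67.8 TPM, and Arpc3 with 73.1 and 52.5 TPM. These overlapped, and the remaining 3 were lower without overlap with them. Arpc2, part of the structural core, had 34.8 and 30.8 TPM, Arpc5 had 28.4 and 33.1 TPM, and Arpc4, the partner of Arpc2 in the core, had 20.2 and 19.0 TPM. Arpc2 and Arpc5 overlapped and Arpc4 was the lowest subunit in both libraries. In the second table Arpc2 (46.0 and 66.4 TPM) overlapped with Actr2 (48.2 and 74.2 TPM), although Actr2 was above in both libraries. Arpc5 was below Arpc4 there in replicate 1.

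The nucleation promoting factors lay in a narrow range in the gene table. Wasf2, the WAVE protein that answers to Rac, had 28.8 and 28.9 TPM, and Was, the blood-cell WASP that answers to Cdc42, had 22.1 and 22.8 TPM. Wipf1, which encodes the WASP chaperone WIP, had 22.5 and 18.3 TPM, and Wasl, the widely expressed N-WASP, had 16.0 and 13.3 TPM. Wasf2 was the highest and Wasl the lowest in both libraries, and Was and Wipf1 overlapped.

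Among the genes of monomer binding, severing and capping, Capg, which caps the growing ends of filaments, was the highest with 95.6 and 89.0 TPM. Tmsb4x, which holds monomers in reserve, had 71.5 and 74.6 TPM, and Pfn1, the profilin that feeds monomers to growing ends, had 59.4 and 64.3 TPM. These 3 did not overlap with one another. Cfl1, the cofilin that severs old filaments, had 26.5 TPM in both libraries. Gsn, the calcium-dependent severing protein gelsolin, had 15.03 and 11.85 TPM, and Tmsb10, a second monomer-holding gene, had 9.90 and 16.1 TPM. Gsn and Tmsb10 overlapped, and Tmsb10 rested on 31 and 71 counts, the fewest of the list in both libraries.

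Coronins help to remove Arp2/3 branches. Coro1b (chr19:4148619-4154035) had 127 and 114 TPM (120 ± 9.17 TPM). Coro1a, the coronin of blood cells, had 68.6 and 46.2 TPM, and Coro1c had 54.3 and 43.9 TPM. Coro1b stood above both in each library of the gene table. The 2 others overlapped, with Coro1a above Coro1c in each library. In the second table the order turned, with Coro1c at 109 and 142 TPM above Coro1b at 97.9 and 131 TPM.

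The genes that lengthen unbranched filaments were led by Evl, an Ena/VASP protein, with 203 and 148 TPM (175 ± 38.9 TPM). Diaph1, a formin switched on by RhoA, had 30.2 and 31.2 TPM. Vasp had 21.6 and 20.2 TPM and Fmnl1, a formin of blood cells, had 17.0 and 18.7 TPM. None of these 4 overlapped with the next, and Evl lay 4th of all 42 genes.

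The small GTPases differed several-fold in the gene table. Cdc42, which drives filopodia and WASP activity, had 53.7 and 58.2 TPM, and Rhoa, which drives contraction through myosin, had 23.7 and 23.8 TPM. Rac1, the Rac of most tissues, had 11.5 and 8.21 TPM, and Rac2, the Rac of blood cells, had 8.68 and 7.75 TPM. Cdc42 and Rhoa did not overlap with any other of the 4. Rac1 and Rac2 overlapped, with Rac1 above Rac2 in both libraries. Both Rac values depend on the table used, as given further on.

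All 4 GTPase regulators lay above the upper quartile of detected genes. Dock2 (chr11:34226815-34783892, minus strand), the Rac exchange factor of blood cells, was the highest of the 42 genes with 284 and 273 TPM (278 ± 8.04 TPM) and ranked 64th of all protein-coding genes. Myo9b, a myosin that carries a domain to switch small GTPases off, had 111 and 96.7 TPM, and Dock10, an exchange factor for Cdc42 and Rac, had 96.2 and 103 TPM. Dock8, an exchange factor for Cdc42, had 47.4 and 42.4 TPM. Myo9b and Dock10 overlapped, with Dock2 above and Dock8 below them in both libraries.

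The motor, crosslinker and adhesion genes ranged from 11.0 to 205 TPM. Flna (chrX:74223461-74249820, minus strand), which encodes filamin A and links crossing filaments, had 255 and 155 TPM (205 ± 70.4 TPM), the largest spread in TPM among the 42. Tln1, the talin that switches integrins on, had 171 and 136 TPM, and Lcp1, the plastin that bundles filaments in blood cells, had 118 and 82.1 TPM. Myh9, the heavy chain of nonmuscle myosin IIA, had 75.1 and 50.7 TPM, and Lasp1, a LIM domain protein of podosomes, had 63.7 and 56.6 TPM. Vcl, the vinculin that strengthens talin's hold on actin, had 12.3 and 9.68 TPM and lay apart below the others. Flna and Tln1 overlapped, although Flna was above Tln1 in both libraries of the gene table. Myh9 and Lasp1 overlapped and changed order between the libraries.

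ERM proteins tie filaments to the membrane. Msn, the moesin that prevails in blood cells, had 47.8 and 49.3 TPM, and Ezr, the ezrin typical of epithelia, had 3.17 and 2.08 TPM. Ezr was the lowest gene of the list and rested on 96 and 83 counts.

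Partners and paralogs of the 42 genes were read from a list of 87 further genes, of which 65 were detected, with a median of 11.7 ± 0.361 TPM. None of the 4 muscle actins was detected: Acta1, Actc1 and Actg2 were listed at 0 counts in the gene table, and Acta2 had 0.54 and 0.40 TPM. The second transcript table, which was made from the same reads by another route, gave Actg2 1 and 4 counts and Acta1 0 and 1, and detected none of the 4 either. Of the 4 paralogs of the WASP, WAVE and WIP genes, Wipf2 (6.91 TPM) was detected and Wasf1, Wasf3 and Wipf3 were listed at 0 in the gene table. In the second table Wasf1 was again at 0, but Wasf3 had 0.46 and 0.49 TPM and Wipf3 2.49 and 3.36 TPM. Of the 3 Arp2/3 paralogs, Arpc1a (13.9 TPM) and Arpc5l (11.7 TPM) were detected and Actr3b had 1 and 0 counts. Arpc1a had 16.9 and 11.0 TPM, far below Arpc1b in both libraries.

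The pattern was less even elsewhere. Coro7, a coronin of the Golgi, had 175 and 136 TPM, above all 3 coronins of the list in both libraries, while Coro6 had 0 and 2 counts. Diaph2 had 46.3 and 48.8 TPM, above Diaph1 in both. On coding transcripts alone Diaph2 had 18.01 and 19.64 TPM and Diaph1 21.3 and 17.55 TPM, so their order changed between the libraries. Enah, the third Ena/VASP gene, had 3.58 and 5.52 TPM in the second table but 0.27 and 0.22 TPM in the gene table. Dock1, the exchange factor that works with ELMO proteins in uptake of dead cells, had 81.5 and 72.4 TPM, between Dock10 and Dock8, and Dock9 had 1.00 and 0.99 TPM. In the second table, 70 of the 87 related genes were detected. Among paralogs of motor, adhesion and ERM genes, Rdx, the third ERM gene, had 7.49 and 8.54 TPM, above Ezr and below Msn in both libraries, and Myh10 had 4.22 and 5.56 TPM, below Myh9. Pfn2 (15.3 TPM), Cfl2 (13.3 TPM) and Dstn (6.24 TPM) were the 3 detected of 6 cofilin, profilin and gelsolin paralogs, and Scin was listed at 0 in the gene table but had 0.96 and 1.58 TPM in the second table. Among 6 paralogs of the small GTPases, 5 were detected, from Rac3 (3.56 TPM) to Rhob (18.0 TPM), and Rhoj had 0.61 and 0.63 TPM.

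**Figure D2:**
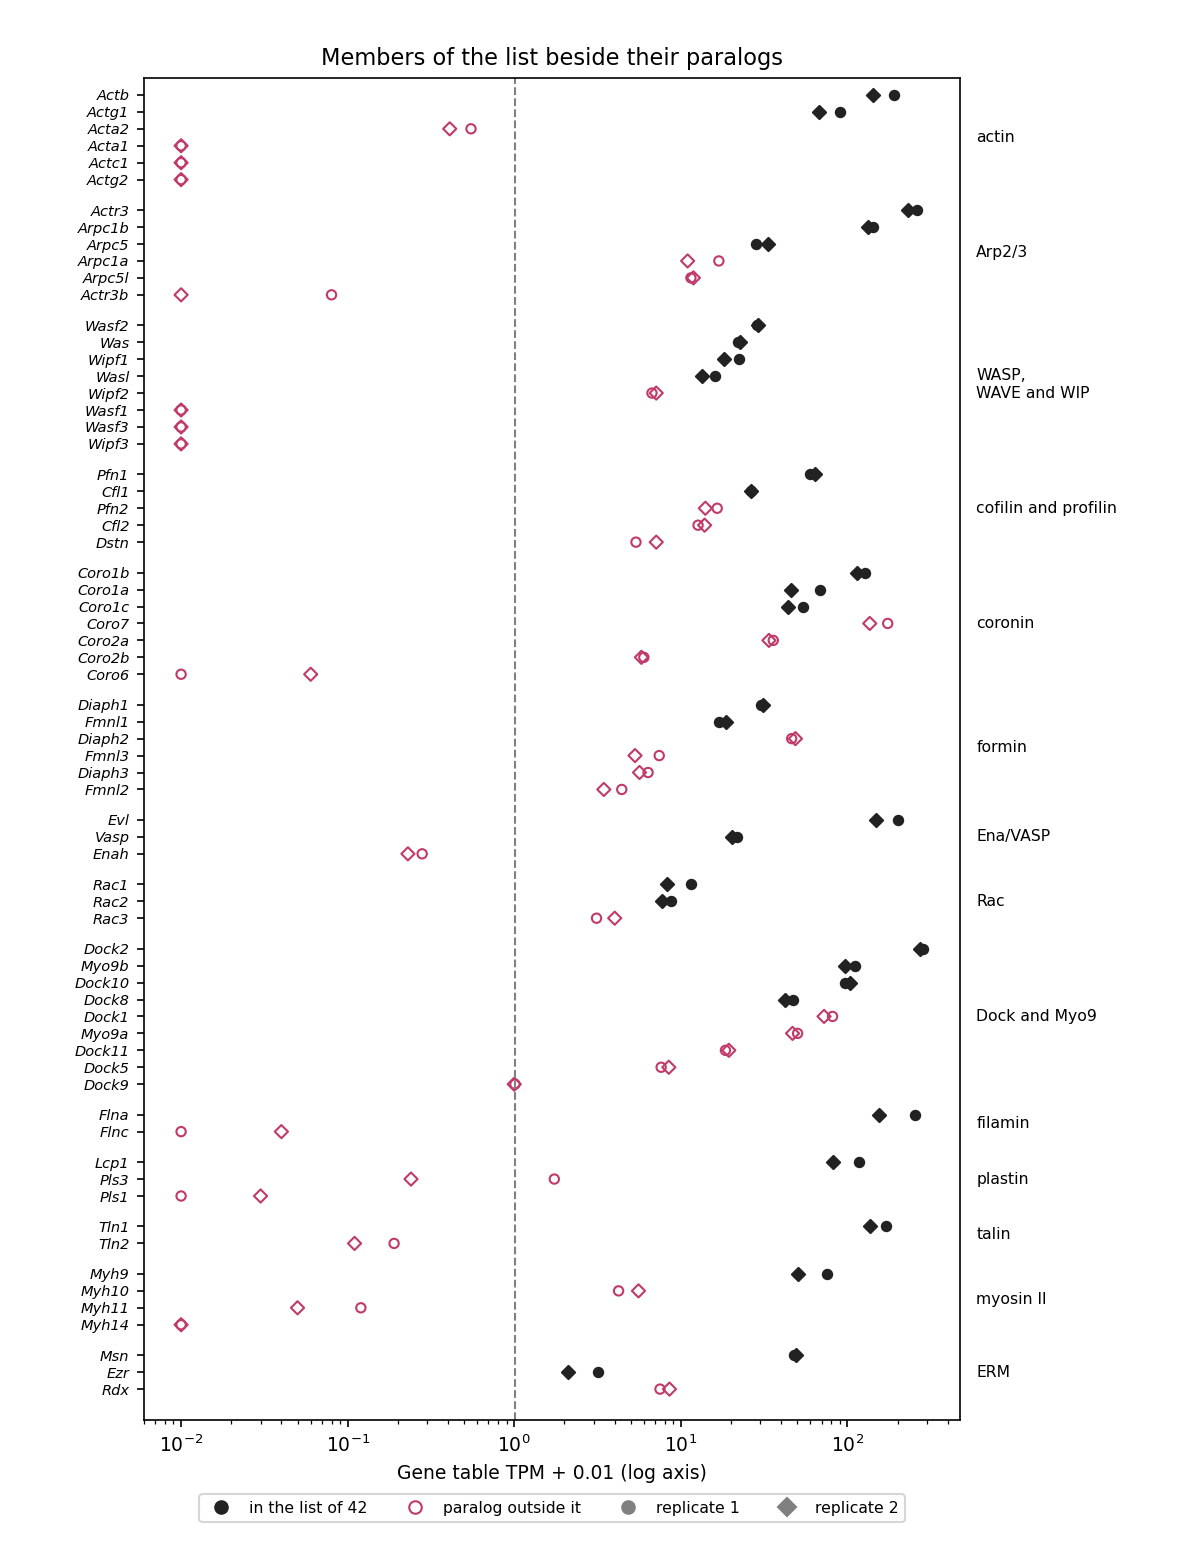
Level in TPM of the gene table plus 0.01 (log axis) of genes of the list (filled) and of their paralogs (open), by family, with replicate 1 as circles and replicate 2 as diamonds and the detection threshold of 1 TPM dashed. Actb and Actg1 lie at 67.1 TPM or more and the muscle actins at or below 0.54 TPM, and in the coronin and formin families the members lie below the paralogs Coro7 and Diaph2.

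Chromatin RNA of most genes of partner complexes was detected. All 8 genes of the WAVE complex were detected in the gene table, from Nckap1 (1.59 TPM, and 0.967 and 1.89 TPM in the second table) to Nckap1l, its blood-cell counterpart, with 235 and 198 TPM. The 4 ELMO and Vav genes, which help to load Rac, ranged from Elmo2 (20.0 TPM) to Vav3 (92.5 TPM), and the 10 effectors and inhibitors of the GTPases from Pak1 (5.75 TPM) to Rock1 (61.9 TPM). The 6 further capping and monomer genes ranged from Twf2 (14.2 TPM) to Cap1 (71.4 TPM), and the 7 tropomyosin, actinin and myosin light chain genes from Myl12a (5.91 TPM) to Tpm3 (278 TPM). Fermt3, the kindlin of blood cells that acts beside talin, had 113 and 98.8 TPM, while Cttn, cortactin, had 2.86 and 0.91 TPM, and 2.31 and 4.56 TPM in the second table. Hcls1, the cortactin relative of blood cells, had 37.8 and 26.4 TPM.

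The annotated kind of transcript to which these levels were assigned was read from the first transcript table. GENCODE calls a transcript a retained intron when it contains sequence that coding transcripts of the gene splice out. Chromatin RNA that is not yet spliced holds such sequence too, and the shares below cannot tell it from a retained intron. Of the 42 genes, 29 had such a transcript, against 63.1% of detected protein-coding genes, and all 29 had the 100 counts in each library asked for here. Their median share of TPM on these transcripts was 48.5 ± 0.733%, against 49.0 ± 0.566% over 5042 protein-coding genes chosen the same way. Retained-intron transcripts are often short, and TPM is per length, so the share of expected counts was also taken: its median was 24.4 ± 0.373%, against 31.2 ± 0.723% over the 5042 genes. The median of the 29 genes thus lay close to that of other genes by TPM and below it by counts.

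At least 50% of TPM lay on retained-intron transcripts in 13 of the 29 genes, against 48.1% of the 5042. By counts it was 6 of 29, against 30.5%, and by both measures the same 6, against 26.8%. These 6 were Coro1b, Pfn1, Rhoa, Arpc3, Arpc1b and Coro1c. Just inside the 50% limit by TPM lay Pfn1 with 54.5%, and just outside it Capg with 49.4% and Cfl1 with 48.5%. In the second transcript table, 3 of the 6 (Arpc3, Coro1b and Coro1c) also had 50% or more.

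By role, all 3 coronins, both actins, 3 of the 5 Arp2/3 subunits with such a transcript and 3 of the 5 with one among the motor, crosslinker and adhesion genes (Flna, Lasp1 and Myh9) reached 50% of TPM. None of the 4 formin and Ena/VASP genes and none of the 3 DOCK genes did. By counts, 2 coronins and 2 Arp2/3 subunits reached 50%, but 0 actins and 0 motor, crosslinker and adhesion genes. In the second table Actb (46.3%), Actg1 (48.3%), Arpc1b (48.7%), Myh9 (44.2%) and Lasp1 (23.1%) also fell below 50% of TPM. All 3 coronins, Actr3, Arpc3 and Flna stayed above it there. The pattern by role thus depends on the measure. Coro1b was high by either measure, with 78.2% and 74.3% of TPM and 79.1% and 77.4% of counts. Pfn1 had 53.8% and 55.3% of TPM but 76.7% and 77.9% of counts. Flna went the other way, with 62.5% and 63.6% of TPM but 10.3% and 10.7% of counts. At the low end Fmnl1 had 13.7% and 10.7% of TPM, Gsn 15.3% and 14.7% of TPM, and Evl 19.6% and 18.8% of TPM.

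**Figure D3:**
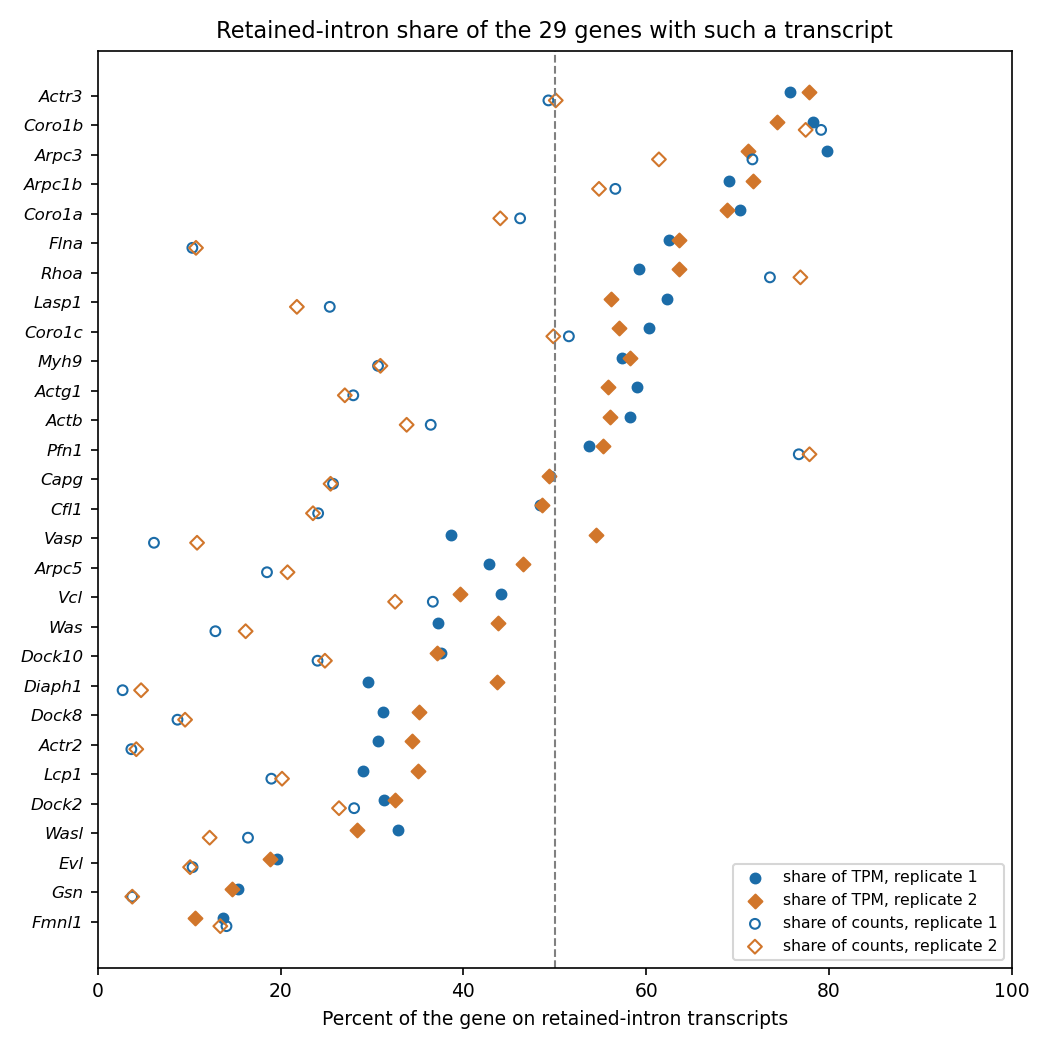
Percent of each gene carried by transcripts annotated as retained intron, for the 29 genes with one, as a share of TPM (filled) and of expected counts (open), replicate 1 as circles and replicate 2 as diamonds, with 50% dashed. Filled points lie right of open ones for most genes, Flna most of all (63.1% against 10.5% on average), while Pfn1, Rhoa, Coro1b and Fmnl1 have the larger share by counts.

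The leading transcript, the one with the highest mean TPM, was a retained intron in 10 of the 42 genes, against 30.9% of detected protein-coding genes. It was a coding transcript in 30 and an annotated processed transcript, which has no reading frame, in Actr2 and Wasf2. For Coro1b it was Coro1b-211, which keeps 3 introns across 2814 bases and had 35.4 and 33.5 TPM, against 12.6 and 12.1 TPM for the leading coding transcript Coro1b-201. For Pfn1 it was Pfn1-203, a single exon of 1997 bases with 31.9 and 35.6 TPM, against 27.5 and 28.8 TPM for the spliced Pfn1-201. Rhoa-204, a single exon of 5101 bases, had 9.99 and 10.7 TPM, against 9.06 and 8.09 TPM for the spliced Rhoa-201. Actr3-209 had 69.7 and 68.6 TPM, against 59.8 and 51.3 TPM for the coding Actr3-202. Among genes led by a coding transcript, Evl-206 had 119 and 84.8 TPM, Dock2-203 had 124 and 122 TPM, Flna-202 had 72.2 and 43.8 TPM and Tln1-201 had 72.7 and 53.4 TPM.

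Of the 76 retained-intron transcripts of the 29 genes, all crossed at least 1 splice site of a coding transcript with 10 bases on either side, and 18 contained a whole intron with both its sites. These 18 belong to 11 genes and hold 22 different introns of 86 to 1369 bases, with a median of 206.5 bases. The other 58 cross sites without holding a whole intron. Of the 22 introns, 21 begin with GT and end with AG. The exception, a 150-base stretch of Actb, begins with GC. Only 1 coding transcript splices it out, against 4 for the 454-base and 87-base Actb introns, so calling it an intron rests on that transcript. Beside the actin introns above, the splice sites of 3 introns in the genes just described are given below in the same way to show where these transcripts leave the spliced form. No reads over single sites were measured: the counts are shares among whole transcripts. The introns are the 220-base intron of Coro1b-211 (chr19:4150220-4150439, plus strand), the 1369-base intron of Pfn1-203 (chr11:70652980-70654348, minus strand) and the 155-base intron of Flna-211 (chrX:74227336-74227490, minus strand), the last in a transcript with 64.6 and 40.1 TPM.
Coro1b 220-base intron, 5′ site: ctcagtgcagGTTTGCACCA
Coro1b 220-base intron, 3′ site: TGCCCATCAGgttgtgacaa
Pfn1 1369-base intron, 5′ site: tagcattacgGTACTGCGAG
Pfn1 1369-base intron, 3′ site: ATTCTTTTAGccagctgagg
Flna 155-base intron, 5′ site: ggagtgccagGTAGGTGTAC
Flna 155-base intron, 3′ site: TTTCCCACAGcggagttcgg

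The 2 libraries were then set against each other as the log2 ratio of replicate 2 over replicate 1, on counts scaled by the TMM method plus 0.5. No gene of the list differed by 2-fold or more, against 0.382% of the 10984 genes that averaged 50 counts or more. The median ratio was -0.05 over the list and 0.02 over these genes. Of the 42, 26 lay below that all-gene median, which by definition splits all genes evenly. Scaling by library size moved the all-gene median to 0.14, a shift of 0.11, so directions here are relative to the median of all genes. Lower by 1.5-fold or more in replicate 2 were Ezr (log2 ratio -0.69) and Flna (-0.64), against 1.57% of genes. With library size scaling Ezr had -0.58 and Flna -0.53, short of 1.5-fold, so both calls rest on the scaling. Higher by 1.5-fold or more was Tmsb10 (0.70), against 1.88%. RNA input differed between the libraries, and its part in these ratios cannot be told apart from other differences between them.

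By role the ratios lay on different sides of the all-gene median, which by definition splits all genes evenly. All 6 motor, crosslinker and adhesion genes lay below the all-gene median, with ratios from -0.64 (Flna) through -0.46 (Myh9) and -0.33 (Tln1) to 0.02 (Lasp1). So did all 4 formin and Ena/VASP genes, from -0.39 (Evl) to -0.06 (Fmnl1), all 3 coronins, from -0.44 (Coro1a) to 0.01 (Coro1b), and both actins, with -0.28 (Actb) and -0.20 (Actg1). All 4 nucleation promoting factors lay above it, from 0.03 (Was) to 0.12 (Wipf1). Some of these genes lay almost on the median: relative to it Lasp1 had -0.007, Coro1b -0.013, Was 0.008 and Wasl 0.012. That all genes of their roles fell on 1 side rests on such small values. The Arp2/3 subunits were split, with 4 above and 3 below, from -0.25 (Arpc3) to 0.26 (Arpc5). Below the 5th percentile of all genes, which holds 5.01% of them, lay 5 of the 42: Ezr, Flna, Myh9, Coro1a and Evl. Above the 95th percentile lay Tmsb10 alone, against 5.01%. Srf, the transcription factor that with its MRTF cofactors controls many actin genes, had 52 and 131 counts and a ratio of 0.84, and its cofactors Mrtfa and Mrtfb had -0.15 and -0.01. The 5 platelet markers summed to 15.4 and 4.81 TPM in the gene table, mostly on Pf4 with 28 and 12 counts. In the second table they summed to 12.2 and 13.0 TPM, with Pf4 at 53 and 50 counts. Gp1bb was at 0 in both tables. Protein-coding genes took 25.2% and 37.1% of TPM in the second table, against 26.2% and 24.6% in the gene table. TPM of the second table is thus not directly comparable between the libraries. The part of the platelet markers in these ratios was not tested.

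**Figure D4:**
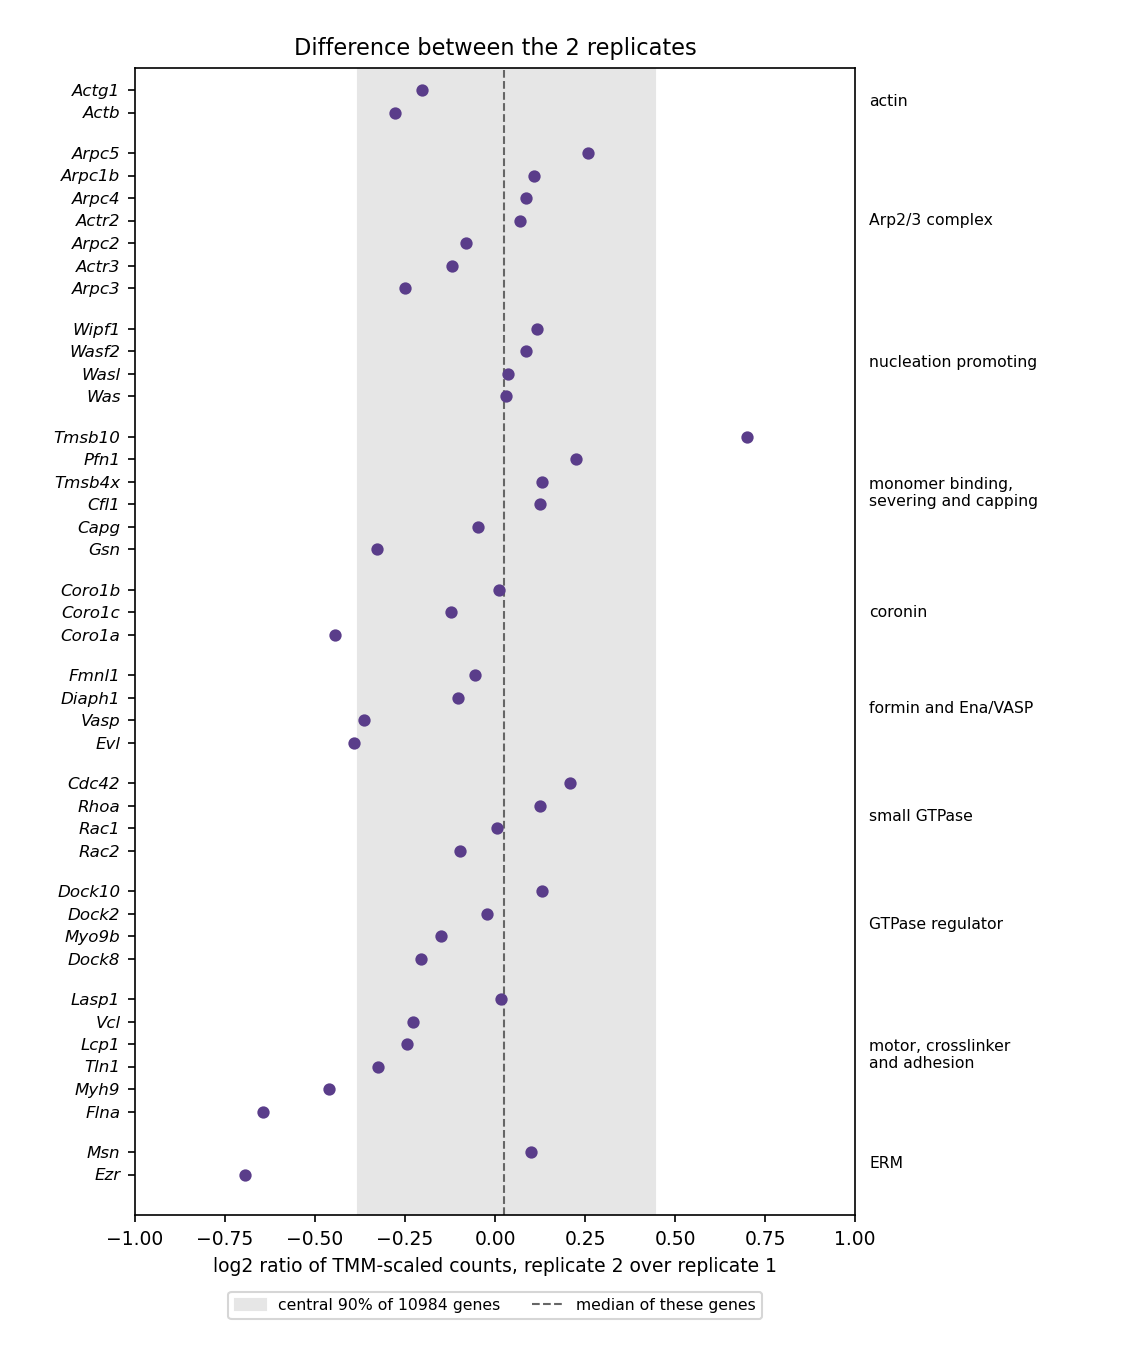
Log2 ratio of TMM-scaled counts, replicate 2 over replicate 1, for the 42 genes by role, with the central 90% of the 10984 genes shaded and their median of 0.02 dashed. Ezr (-0.69), Flna (-0.64), Myh9 (-0.46), Coro1a (-0.44) and Evl (-0.39) lie left of the shaded range and Tmsb10 (0.70) right of it.

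Levels in the second transcript table were summed per gene and compared with the gene table. There, 6 of the 42 genes were higher by 2-fold or more than in the gene table, against 12.7% of 10279 protein-coding genes, and none was 2-fold lower, against 0.321%. With both tables rescaled to the same sum over protein-coding genes, 5 were higher, against 7.35%, and none lower, against 1.12%. The median log2 ratio of the second table over the gene table was 0.24 over the list and 0.22 over those protein-coding genes. Rac2 averaged 66.3 TPM in the second table and 8.22 TPM in the gene table, a log2 ratio of 3.01. Rac1 averaged 53.2 TPM in the second table and 9.87 TPM in the gene table, a log2 ratio of 2.43. The other 4 were Wasf2 (1.44), Coro1c (1.36), Lasp1 (1.28) and Wipf1 (1.27).

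For both Rac genes the difference lay on short transcripts. Rac2-202, of 459 bases, had 23.9 and 35.8 TPM in the second table but 0.80 and 0.71 TPM in the first transcript table, and Rac2-203, of 254 bases, had 23.1 and 34.4 TPM against 0.15 and 0.27 TPM. The coding Rac2-201, of 3038 bases, had 6.44 and 9.04 TPM in the second table and 7.73 and 6.77 TPM in the first. Likewise Rac1-203, of 344 bases, had 23.1 and 34.4 TPM in the second table and 1.77 and 0 TPM in the first, while the coding Rac1-202 had 8.79 and 13.8 TPM in the second and 7.05 and 6.46 TPM in the first. The long coding transcripts of Rac1 and Rac2 thus stayed low in both tables. The leading transcript was the same in both tables for 19 of the 42 genes, among them Actb-201, Actr3-209, Evl-206, Dock2-203, Flna-202 and Tln1-201, and either table had 10 genes led by a retained intron.

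**Figure D5:**
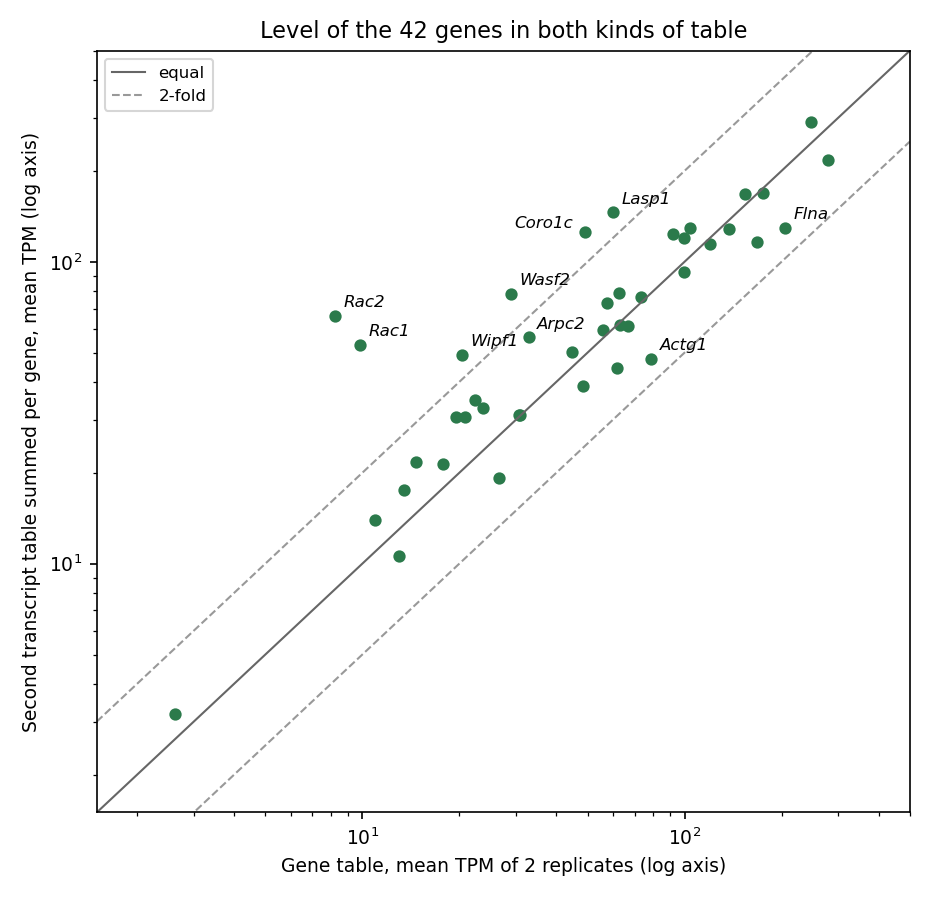
Mean TPM of the 42 genes in the second transcript table (summed per gene, vertical, log axis) against the gene table (horizontal, log axis), with lines of equality and of 2-fold difference. Rac2 (66.3 against 8.22 TPM) and Rac1 (53.2 against 9.87 TPM) stand furthest above the upper 2-fold line, and no gene lies below the lower one.

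Some of the 42 genes share sequence with other loci, and no source used here gives whether the libraries kept strand. Rac1 held 193 and 271 counts and overlaps Daglb, a gene on the other strand that held 1357 and 1741, and 51.3% of the 31-base stretches of Rac1 transcripts also occur in another gene. Cfl1 (273 and 417 counts) overlaps Snx32 on the other strand (918 and 1276 counts), Vcl (563 and 675 counts) overlaps Ap3m1 on the other strand (336 and 617 counts), and Arpc4 (401 and 596 counts) overlaps Ttll3 on its own strand (455 and 679 counts). Coro1c (1251 and 1612 counts) overlaps Gm43336 on its own strand (1022 and 1117 counts), Wasl (388 and 558 counts) overlaps Gm42856 on its own strand (227 and 338 counts), and Coro1a (556 and 573 counts) overlaps Bola2 on the other strand (186 and 274 counts). In all, 11 of the 42 genes overlap a gene with at least 20% of their own counts, the rest being Arpc3, Gsn, Arpc1b and Coro1b. Overlap was taken over whole gene spans, introns included, and reads in shared sequence cannot be assigned with certainty. Of the 31-base stretches, Arpc1b shared 30.5% with some other gene, Vcl 25.3%, Cfl1 22.6%, Coro1b 13.1%, Arpc4 10.8% and Coro1c 8.36%. Arpc3 shared 1.09%, Wasl 0.880%, and Coro1a and Gsn none. Levels of the genes that share more are thus uncertain, and how far overlap affects the others was not tested. Of the 42 genes, 14 had 32 annotated pseudogene copies that share at least 50 such stretches. Of these copies 9 held counts, 57.7 in all in replicate 1 and 118 in replicate 2. Ambiguous reads were already shared out in these counts, so they cannot show how much the copies matter. Among genes with copies, Actg1 shared 40.2% of its stretches with some other gene, Actr3 34.2% and Tmsb10 32.0%. Actg1 had 11 copies, which held 4.09% and 4.84% of the counts of gene and copies together, most of them on Gm17228 (28 and 40 counts). Gm15899, a copy of Actr3, held 2.50 and 11.98 counts in the gene table but 91.9 and 109.6 in the second table.

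Actin genes are classic targets of SRF, which binds the CArG box, so the box was looked for in RefSeq promoters of GRCm38.p6, the 250 bases before and 50 after each gene's start. Its palindromic consensus reads the same on both strands. It was found in 3 of the 37 genes of the list with a promoter entry (Actg1, Vcl and Arpc4), against 1.81% of 27025 genes. Actb, Coro1b, Diaph1, Rac1 and Rac2 had no entry and were not searched. The matches are shown with the box in capitals and up to 10 bases on either side, on the gene's strand. They lie at chr11:120348566-120348595 for Actg1, chr14:20929161-20929190 for Vcl and chr6:113377863-113377882 for Arpc4, where the box begins at the window's edge.
Actg1 CArG box: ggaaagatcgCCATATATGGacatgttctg
Vcl CArG box: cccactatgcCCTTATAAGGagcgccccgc
Arpc4 CArG box: CCTAATTTGGtgcccaacct

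A match is a description of letters and does not show that SRF binds there. Among the 71 related genes with a promoter entry, 6 held the box, among them Srf itself and the muscle actins Acta1 and Actc1. Actg1 at 79.0 TPM, Vcl at 11.0 TPM and Arpc4 at 19.6 TPM lay far apart in level, and their ratios between the replicates were -0.20, -0.23 and 0.09.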

How the data were processed

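Chromatin-fraction RNA of 2 libraries of 1 group was analysed. Each library came with 1 table per gene and 2 per transcript. Per the deposited notes, the gene table and first transcript table rest on alignments to GENCODE M21 transcripts (mm10), and the other transcript table was quantified from reads with an index of those transcripts. The column layouts are those of RSEM and kallisto, but no tool is named in the sources used here. In the authors' tables an expected count is an estimated number of reads, with ambiguous reads shared out. The deposited TPM values are per effective length and add up to the same sum in each table. Entries that are no annotated gene held 0.338% and 0.270% of counts and were left out of scaling.

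The 42 genes and all other lists were chosen with earlier results of these data known. All 42 are named, as are the highest and lowest related gene of each kind and any in a count of 5 or fewer. Of markers, the 2 highest of macrophages and any other at 1 TPM in both libraries are named, and of pseudogenes, copies at 1 TPM or more. Tagln, Col1a1, Cd3d, Pecam1, Gp1bb, Lrrc58 and the overlapping genes fall outside this rule and were chosen after their values were seen. Counts were scaled with TMM (edgeR 4.0.16) or DESeq2 1.42.0 size factors in R 4.3.3. No test was run, since there is 1 group. Ratios used a pseudocount of 0.5 and genes with a mean of 50 counts. Shared sequence was searched as 31-base stretches over both strands. Splice sites were read from the transcripts and promoters from RefSeq (37 of 42 genes matched). Alternatives were the second table, posterior mean TPM (also deposited), rescaling over protein-coding genes, other thresholds, filters, pseudocount and scalings, counts in place of TPM, and leaving out each library. Scaling, ratios and retained-intron shares were tested on simulated data. Python 3.11.15 with numpy 2.4.6 and pandas 2.3.3 was used for the rest. Some results are not reported here.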

Additional observations from a re-analysis of the deposited data

How the results depend on the processing

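The 42 genes were all detected in every alternative but a threshold of 5 TPM, which 41 passed, and the 65 related genes detected became 58 to 70. No gene passed 2-fold between the libraries under any scaling, filter, pseudocount or table tried. The median level of 52.5 TPM was 60.3 TPM in the second transcript table, 207 TPM when rescaled over protein-coding genes, and 47.7 to 54.0 TPM when 1 library was left out. Leaving out a library moved no single gene by over 1.5-fold, and the second table moved 11 of 42 by more. The median log2 ratio between the libraries of -0.05 was 0.062 with library size scaling. Genes 2-fold apart between tables were 6, but 12 by expected counts, since the second tables hold more counts in all (19200416 and 24693077). They were 5 after rescaling both tables over protein-coding genes, an alternative chosen after seeing the data, and 5 to 7 with 1 library left out. The median retained-intron share of 48.5% of TPM was 44.2% in the second table, 24.4% of counts, 57.2% over the 21 genes with 500 counts, and 48.4% to 49.4% with 1 library left out. The 13 genes with 50% or more became 8 in the second table and 6 by counts. No paired analysis was possible because there is only 1 group. With 2 libraries from 1 donor entry, the SDs are weak, and genes at the lowest counts (Tmsb10, Ezr) are the least precise.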
